A study of Arabidopsis thaliana with 36 samples.

Results

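Shoots (leaves) of the Arabidopsis thaliana mutant opt3-2 were compared with shoots of the wild type (Col-0) after cadmium exposure, across all genes of the deposited count table. The comparison holds 3 opt3-2 libraries and 3 wild type libraries, which are 6 of the 12 libraries and 18 of the 36 technical columns of the table. The other 6 libraries are roots of the same genotypes and enter here for the estimate of the spread and for a test of shoots against roots. Plants of both genotypes had 11 days on plates, 22 days in hydroponic medium and then 72 h in that medium with 20 µM CdCl2. Every group thus carries the cadmium treatment, and plants without cadmium were not analysed here. Each RNA sample came from 3 to 4 plants pulverized together, so a library averages a few plants and all their leaf cell types. The mutant is represented by the line opt3-2 alone.

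OPT3 is a plasma membrane transporter of the phloem that moves iron, and copper, into the companion cells which feed the sieve tubes. In shoots it loads metal that has arrived by the xylem into the stream towards young leaves, seeds and roots, and in opt3 mutants leaves hold excess iron while the roots behave as if iron were short. Cadmium enters plants through iron and zinc transporters, is bound by glutathione-derived phytochelatins and is stored in vacuoles, so the iron, zinc, sulfur and stress genes of the leaf are the natural places to look.

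The shoot libraries held between 21262406 and 29692680 counts in opt3-2 and between 27229534 and 33221855 counts in wild type. By unscaled library size, a floor of 3 counts lay between 0.0903 and 0.1411 CPM (counts relative to library size). The CPM values below use TMM-scaled library sizes. On that scale the mean floor was 0.142 CPM in opt3-2 shoots and 0.108 CPM in wild type shoots. Floors cover counting error only. On the first principal component of the 6 shoot libraries, with 69.2% of the variance, opt3-2 libraries lay at -53.6, -53.1 and -37.3 and wild type libraries at 59.0, 29.9 and 55.1. The libraries of opt3-2 replicate 3 and wild type replicate 2 therefore lay nearer to the other genotype than their group mates did. Values are given below in the order of replicates 1, 2 and 3, and results that rest on these libraries are given with and without them. Whether replicates came from separate growth batches is not stated, so p-values measure the spread between these pooled samples. Many genes named below, FER4, SUFB, BCAT4, PR3, JAZ10, ABI1 and NRT1.8 among them, overlap an annotated neighbour, and since the use of strand in counting is not stated their levels may hold reads of it.

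OPT3 (AT4G16370, chr4:9247302-9250343 on the minus strand of TAIR10.1) had 23.4, 17.59 and 24.1 CPM in opt3-2 shoots, against 389, 321 and 352 CPM in wild type shoots. Every opt3-2 library lay far below every wild type library. The difference was log2 -4.02 ± 0.25, adjusted p = 1.92e-06 by edgeR's quasi-likelihood test with Benjamini-Hochberg adjustment over 21887 genes, which is the test behind every adjusted p below (3 libraries a group). The value after ± is a standard error (SE) derived from that test, the size of the log2 fold change over the square root of its F. Where leaving out 1 library ended or made a call, the adjusted p without it is added, and so is the adjusted p by limma-voom, by DESeq2 or with library sizes alone where that setting ended a call. Of the other members of the oligopeptide transporter family that were tested, OPT7 was higher (log2 0.35 ± 0.08, adjusted p = 0.00313) and OPT6 lower (log2 -0.31 ± 0.11, adjusted p = 0.035, or 0.0913 to 0.106 without opt3-2 replicate 2 or 3 or wild type replicate 1 or 3, or 0.0996 by limma-voom, or 0.08 by DESeq2), while OPT1, OPT2, OPT4 and OPT5 did not pass (OPT5 did without wild type replicate 2, adjusted p = 0.0424).

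In all, 4660 genes (21.3% of those tested) were higher in opt3-2 shoots and 4957 (22.6%) lower, so 43.9% were called. These percentages are the background against which the counts below are to be read. Most differences were small, with a median size of 1.41-fold among called genes, and 521 genes (2.38%) were higher and 1193 (5.45%) lower by 2-fold or more. Scaling by library size alone moved the median of all genes by -0.08 on the log2 scale and gave 3259 higher and 5941 lower, so that 35.4% of the called genes were higher, against 48.5% in the main fit. Groups whose 3 libraries did not overlap made up 53.0% of all genes tested.

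**Figure D1:**
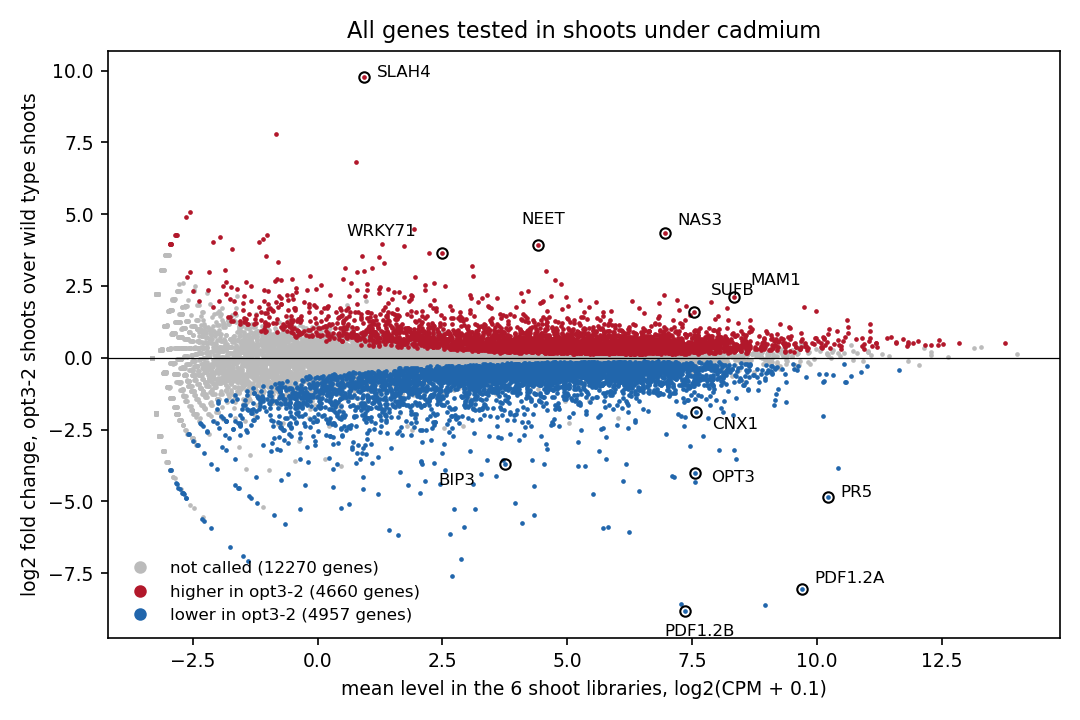
Log2 fold change of opt3-2 over wild type shoots (vertical axis) against the mean level in the 6 shoot libraries as log2 of CPM plus 0.1 (horizontal axis), with 1 point per gene tested. The 4660 genes called higher are red and the 4957 called lower are blue. The ringed falls of the defensin PDF1.2B and of OPT3 are far larger than the median size of 1.41-fold among called genes.

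Genes of iron storage were higher in opt3-2 shoots. Of 6 tested, 4 were higher and 0 lower, with a median log2 fold change of 1.85 against 0.00 over all genes. The plastid ferritin FER3 had 26.8, 26.7 and 28.8 CPM in opt3-2 shoots, against 7.15, 6.99 and 6.83 CPM in wild type shoots (log2 1.97 ± 0.12, adjusted p = 7.99e-07). FER4, a ferritin of plastids and mitochondria, had 42.2, 40.4 and 41.8 CPM in opt3-2 shoots, against 8.64, 10.5 and 8.77 CPM in wild type shoots (log2 2.16 ± 0.12, adjusted p = 3.93e-07). The groups did not overlap in either gene. VTL1 and VTL2, which encode transporters related to those that carry iron into the vacuole, behaved alike. VTL1 had 8.27, 6.81 and 8.27 CPM in opt3-2 shoots, against 2.27, 2.56 and 2.24 CPM in wild type shoots (log2 1.72 ± 0.17, adjusted p = 1.86e-05). VTL2 had 25.1, 29.3 and 28.1 CPM in opt3-2 shoots, against 5.21, 6.82 and 5.38 CPM in wild type shoots (log2 2.24 ± 0.20, adjusted p = 7.73e-06). FER2 (log2 0.74 ± 0.33, adjusted p = 0.0855, or 0.0482 without opt3-2 replicate 3) and VTL5 (log2 -0.60 ± 0.38, adjusted p = 0.225) did not pass, VIT1 and VTL3 were too low to be tested, and FER1 and VTL4 were listed at 0 in all shoot libraries. How reads were counted is not stated. A gene listed at 0 in all shoot libraries, here or below, is therefore not shown to be silent.

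**Figure D2:**
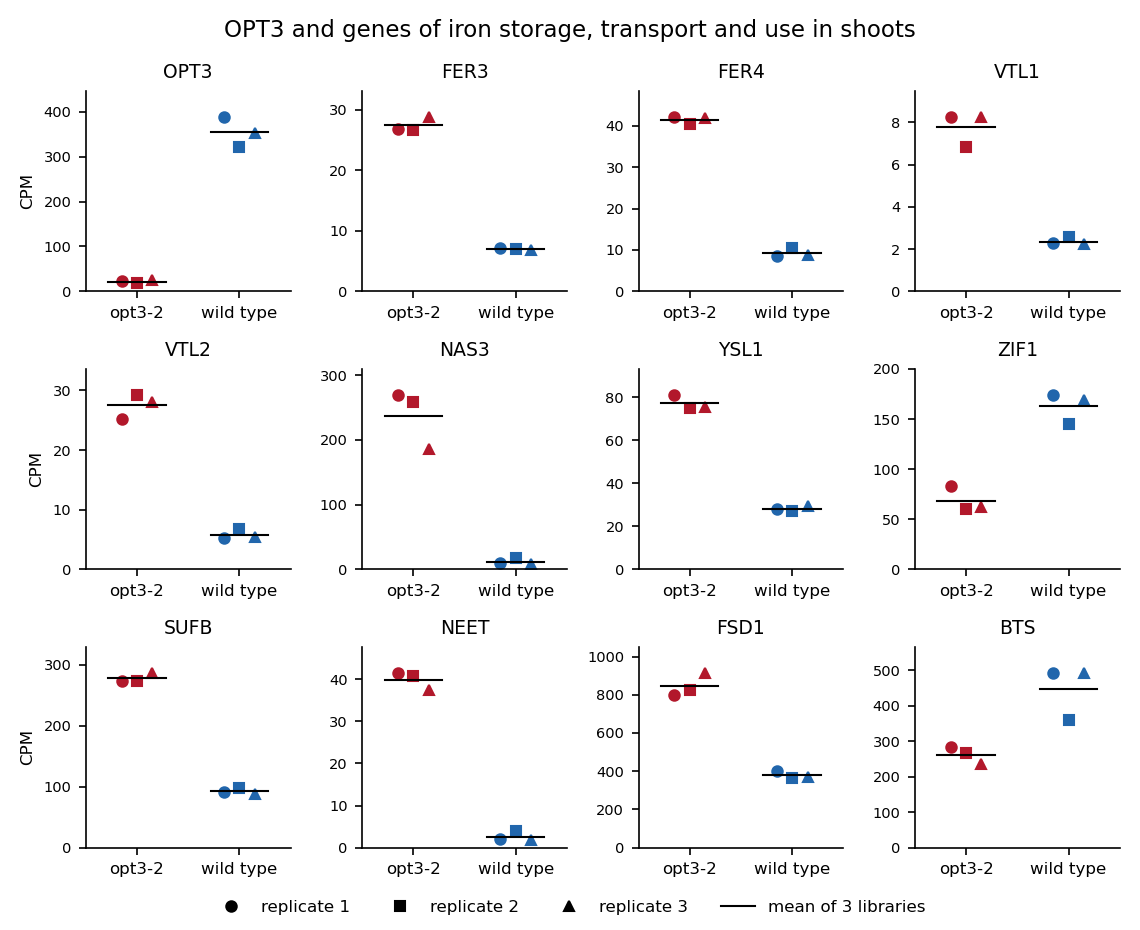
Level in CPM (vertical axes, each starting at 0) of 12 genes of iron storage, transport and use in the 3 opt3-2 shoot libraries (left of each panel, red) and the 3 wild type shoot libraries (right, blue). Points are libraries, with a shape per replicate, and bars are means of 3. The groups do not overlap in any of these panels, and OPT3, ZIF1 and BTS are lower in opt3-2.

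Genes that move iron within the leaf were mostly higher. Of 22 tested, 15 were higher and 3 lower, with a median of 0.49. The lead was taken by NAS3 (AT1G09240, chr1:2984829-2986231 on the plus strand of TAIR10.1), a synthase of nicotianamine, the metal chelator that keeps iron soluble in phloem and cells. NAS3 had 269.6, 258 and 186 CPM in opt3-2 shoots, against 9.3, 17.5 and 8.18 CPM in wild type shoots (log2 4.34 ± 0.30, adjusted p = 4.3e-06). The groups were far apart, with wild type replicate 2 the highest of its group and opt3-2 replicate 3 the lowest of its own. The other synthases NAS1 (log2 1.13 ± 0.22, adjusted p = 0.00179) and NAS4 (log2 1.05 ± 0.18, adjusted p = 0.000777) were higher as well. Among the yellow stripe-like carriers of metal-nicotianamine complexes YSL1 was 2.74-fold higher (log2 1.46 ± 0.09, adjusted p = 6.32e-07), YSL6 (log2 0.48 ± 0.09, adjusted p = 0.00166), YSL2 (log2 0.45 ± 0.10, adjusted p = 0.00436) and YSL3 (log2 0.31 ± 0.11, adjusted p = 0.0447, or 0.0601 to 0.111 without opt3-2 replicate 1, 2 or 3 or wild type replicate 2, or 0.135 with library sizes alone) were higher by less, and YSL4 did not pass (log2 -0.13 ± 0.11, adjusted p = 0.356).

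Iron carriers and reductases went the same way with exceptions. IREG3, a ferroportin-related protein of chloroplasts, had 60.4, 57.7 and 60.05 CPM in opt3-2 shoots, against 45.7, 49.8 and 43.6 CPM in wild type shoots (log2 0.36 ± 0.07, adjusted p = 0.00111), with no overlap. The ferric reductases FRO6 of the leaf plasma membrane (log2 0.73 ± 0.20, adjusted p = 0.011) and FRO7 of the chloroplast (log2 0.57 ± 0.12, adjusted p = 0.00192) were higher, as was FRO8 (log2 0.51 ± 0.17, adjusted p = 0.0342, or 0.0767 to 0.127 without opt3-2 replicate 1 or 3 or wild type replicate 1 or 3, or 0.0741 with library sizes alone), whereas FRO3 of mitochondria was lower (log2 -0.43 ± 0.10, adjusted p = 0.00395). ZIF1, which pumps nicotianamine into the vacuole, had 83.2, 60.8 and 62.1 CPM in opt3-2 shoots, against 174, 145 and 169 CPM in wild type shoots (log2 -1.24 ± 0.12, adjusted p = 1.46e-05), with no overlap. NRAMP3, which releases iron from the vacuole, was also lower (log2 -0.56 ± 0.09, adjusted p = 0.000372). NRAMP4, a second release carrier, did not pass (log2 -0.04 ± 0.10, adjusted p = 0.786). The counts were 12 to 15 higher and 3 lower over all alternatives tried.

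Of 21 regulators of the iron deficiency response tested, 6 were higher and 6 lower (median 0.12), against 21.3% higher and 22.6% lower of all genes. The number higher was 3 without opt3-2 replicate 1, without opt3-2 replicate 2 or with library sizes alone. BTS, a ubiquitin ligase that restrains the response, had 284, 266 and 237 CPM in opt3-2 shoots, against 493, 359 and 493 CPM in wild type shoots (log2 -0.77 ± 0.12, adjusted p = 0.000254). Every opt3-2 library lay below every wild type library, and wild type replicate 2 was the lowest of its group. BHLH11, a repressor of the same response, had 3.53, 3.91 and 3.55 CPM in opt3-2 shoots, against 0.95, 1.98 and 1.02 CPM in wild type shoots (log2 1.46 ± 0.26, adjusted p = 0.000764). KELCH (log2 -0.32 ± 0.07, adjusted p = 0.00237) and the peptide gene IMA3 (log2 -0.77 ± 0.17, adjusted p = 0.00404) were lower, and BHLH104, an activator, was higher (log2 0.30 ± 0.07, adjusted p = 0.00442). FIT, the activator of root iron uptake, did not pass (log2 0.14 ± 0.21, adjusted p = 0.614).

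Within iron-sulfur cluster assembly the plastid machinery was raised in part. Of 28 genes tested, 7 were higher and 5 lower (median 0.04), and the number lower ran from 1 to 6 over the alternatives, with 3 on leaving out opt3-2 replicate 1 or 2 or wild type replicate 1 or 3. SUFB (AT4G04770, chr4:2427686-2429899 on the minus strand of TAIR10.1), a scaffold subunit on which the plastid builds clusters, had 273, 274 and 287 CPM in opt3-2 shoots, against 90.6, 97.8 and 88 CPM in wild type shoots (log2 1.59 ± 0.06, adjusted p = 6.02e-08). The opt3-2 libraries were close to each other and all far above wild type. NEET, an iron-sulfur protein able to hand on clusters, had 41.5, 40.8 and 37.4 CPM in opt3-2 shoots, against 2.02, 3.89 and 1.81 CPM in wild type shoots (log2 3.94 ± 0.24, adjusted p = 1.04e-06). The carriers SUFA (log2 0.42 ± 0.06, adjusted p = 0.000244), NFU1 (log2 0.29 ± 0.07, adjusted p = 0.00859, or 0.0518 with library sizes alone) and NFU3 (log2 0.42 ± 0.10, adjusted p = 0.00412), the ATPase SUFC (log2 0.23 ± 0.05, adjusted p = 0.00291, or 0.0595 with library sizes alone) and SUFE3 (log2 0.35 ± 0.07, adjusted p = 0.00191) rose by less, and SUFD, the partner of SUFB and SUFC, did not pass (log2 -0.11 ± 0.07, adjusted p = 0.238). Of the mitochondrial and cytosolic systems, INDH (log2 -0.49 ± 0.11, adjusted p = 0.00404), AE7 (log2 -0.23 ± 0.06, adjusted p = 0.00882) and the cysteine desulfurase NFS1 (log2 -0.33 ± 0.09, adjusted p = 0.0135, or 0.0564 without opt3-2 replicate 1) were lower.

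Among ferredoxins, superoxide dismutases, catalases and ascorbate peroxidases, 10 of 24 were higher and 4 lower (median 0.21), with 5 higher without wild type replicate 3 or with library sizes alone. Of the 4 lower, 1 not named here fell by 2-fold or more. The lowest log2 fold change of the list was -4.37. CAT1, a catalase, had 130.2, 127 and 119 CPM in opt3-2 shoots, against 30, 36.5 and 30.4 CPM in wild type shoots (log2 1.96 ± 0.11, adjusted p = 4.88e-07), and the groups were far apart. The iron superoxide dismutase of chloroplasts, FSD1, had 799, 826 and 914 CPM in opt3-2 shoots, against 401, 365 and 370.5 CPM in wild type shoots (log2 1.16 ± 0.09, adjusted p = 2.71e-06), with no overlap. The copper/zinc dismutases CSD1 (log2 -0.48 ± 0.24, adjusted p = 0.139) and CSD2 (log2 -0.49 ± 0.27, adjusted p = 0.175) did not pass. CSD1 had 66.6, 67.6 and 52.7 CPM in opt3-2 shoots, against 69, 124 and 66.8 CPM in wild type shoots, and CSD2 had 50.6, 46.1 and 34.1 CPM in opt3-2 shoots, against 46.6, 92.2 and 45.3 CPM in wild type shoots. In both, wild type replicate 2 was the highest library by far and the other libraries overlapped. The manganese dismutase MSD1 was lower (log2 -0.31 ± 0.06, adjusted p = 0.00116). FD2, the main leaf ferredoxin, was higher (log2 1.02 ± 0.12, adjusted p = 4.6e-05) and FD3 lower (log2 -0.59 ± 0.09, adjusted p = 0.000365), and APX6 was higher (log2 0.57 ± 0.07, adjusted p = 7.03e-05).

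The copper list had 4 of 16 higher and 2 lower (median 0.20, but 0.12 without opt3-2 replicate 3 and 0.11 without wild type replicate 2). ARPN, a plantacyanin, had 1.21, 1.68 and 0.841 CPM in opt3-2 shoots, against 5.54, 7.53 and 4.55 CPM in wild type shoots (log2 -2.26 ± 0.24, adjusted p = 2.39e-05), with all opt3-2 libraries below all wild type ones. The copper chaperones moved apart, ATX1 being lower (log2 -0.57 ± 0.09, adjusted p = 0.000375) and CCH higher (log2 0.45 ± 0.08, adjusted p = 0.000819). HMA7, which loads copper into ethylene receptors, was higher (log2 0.37 ± 0.06, adjusted p = 0.000511), as was SPL7, the regulator of the copper deficiency response (log2 0.24 ± 0.06, adjusted p = 0.00915, or 0.0899 with library sizes alone).

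The zinc list had 4 of 18 higher and 3 lower (median 0.02). The smallest p-values among its members were those of 2 genes of the zinc deficiency response, whose factors bZIP19 and bZIP23 bind the palindrome TGTCGACA. ZIP4 had 11.1, 11.6 and 13.4 CPM in opt3-2 shoots, against 26.8, 26.7 and 24.4 CPM in wild type shoots (log2 -1.11 ± 0.09, adjusted p = 4.68e-06). IRT3 had 24.7, 22.8 and 29 CPM in opt3-2 shoots, against 58.5, 58.8 and 58 CPM in wild type shoots (log2 -1.20 ± 0.10, adjusted p = 4.84e-06). No libraries overlapped. Both genes encode plasma membrane zinc carriers, and their promoters are shown because each holds the palindrome, in capitals, 39 bases before the start of ZIP4 and 24 bases before that of IRT3. Both are 100 bases upstream of the RefSeq start on TAIR10.1, 5′ to 3′ on the gene's minus strand, and that of ZIP4 lies within an annotated neighbour, AT1G10980.
ZIP4, chr1:3667140-3667239 minus strand: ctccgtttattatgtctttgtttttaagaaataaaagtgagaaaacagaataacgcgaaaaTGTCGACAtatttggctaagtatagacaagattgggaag
IRT3, chr1:22447300-22447399 minus strand: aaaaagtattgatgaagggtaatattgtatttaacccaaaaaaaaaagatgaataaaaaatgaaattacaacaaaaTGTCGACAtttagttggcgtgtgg
Searched on both strands from 250 bases before to 50 after the start, the palindrome is in 4 of 19 promoters of the list (ZIP4, IRT3, ZIP10 and ZIP12) and in 0.328% of 27443 promoters. ZIP10 was listed at 0 in all shoot libraries and ZIP12 was too low to be tested. The factor genes BZIP19 (log2 0.06 ± 0.06, adjusted p = 0.523) and BZIP23 (log2 -0.06 ± 0.14, adjusted p = 0.748) did not pass. HMA2 (log2 0.83 ± 0.14, adjusted p = 0.000842) and HMA4 (log2 0.61 ± 0.11, adjusted p = 0.00101), pumps that load zinc and cadmium into the xylem, and the vacuolar zinc carrier MTP1 (log2 0.39 ± 0.08, adjusted p = 0.00163) were higher.

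Of 16 genes of cadmium detoxification tested, 5 were higher and 4 lower (median 0.10), against 21.3% higher and 22.6% lower of all genes. PCR2, a plasma membrane protein that exports zinc, had 8.97, 7.43 and 7.62 CPM in opt3-2 shoots, against 31.2, 19.2 and 29.4 CPM in wild type shoots (log2 -1.72 ± 0.22, adjusted p = 0.000128). PCR1, which confers cadmium resistance, had 91.2, 61.3 and 68.5 CPM in opt3-2 shoots, against 197, 190.0 and 173 CPM in wild type shoots (log2 -1.34 ± 0.20, adjusted p = 0.000372). In both, every opt3-2 library lay below every wild type library. The glutathione synthesis genes GSH1 (log2 -0.44 ± 0.08, adjusted p = 0.000698) and GSH2 (log2 -0.33 ± 0.09, adjusted p = 0.0084) were lower, and PCS1, the phytochelatin synthase, did not pass (log2 -0.16 ± 0.13, adjusted p = 0.355). The vacuolar carriers of phytochelatins ABCC1 (log2 0.27 ± 0.06, adjusted p = 0.00434) and ABCC2 (log2 0.33 ± 0.07, adjusted p = 0.00215) were higher by a little, their relative ABCC6 by more (log2 0.91 ± 0.14, adjusted p = 0.000289), and ABCC3 did not pass (log2 0.11 ± 0.14, adjusted p = 0.545). The metallothioneins MT1C (log2 0.98 ± 0.20, adjusted p = 0.00235) and MT3 (log2 0.52 ± 0.11, adjusted p = 0.00281) were higher, MT2A did not pass (log2 0.14 ± 0.09, adjusted p = 0.224), and MT1A and MT2B were listed at 0.

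Tau class glutathione transferases had 5 of 27 higher and 5 lower (median 0.08), and 8 were lower without wild type replicate 2. GSTU6 had 0.901, 0.838 and 1.26 CPM in opt3-2 shoots, against 12.3, 4.02 and 14 CPM in wild type shoots (log2 -3.33 ± 0.49, adjusted p = 0.000367). GSTU17 had 15.6, 14.1 and 14.8 CPM in opt3-2 shoots, against 30.9, 23.59 and 30.02 CPM in wild type shoots (log2 -0.93 ± 0.14, adjusted p = 0.000289). In both, wild type replicate 2 was the lowest of its group and still above all opt3-2 libraries. Higher were GSTU8 (log2 1.4 ± 0.16, adjusted p = 4.58e-05), GSTU16 (log2 0.74 ± 0.12, adjusted p = 0.000575) and GSTU20 (log2 1.37 ± 0.17, adjusted p = 0.00013), the last of which also stands in the glucosinolate list. Of the mitochondrial stress genes 3 of 13 were higher and 3 lower (median 0.06). Of these 3 lower, 1 not named here fell by 2-fold or more, and the lowest log2 fold change of the list was -2.05. The alternative oxidase AOX1A was higher (log2 0.46 ± 0.08, adjusted p = 0.000618). Of the alternative NADH dehydrogenases NDB3 (log2 2.53 ± 0.45, adjusted p = 0.000867) and NDC1 (log2 0.31 ± 0.06, adjusted p = 0.00184) were higher while NDB1 (log2 -0.55 ± 0.10, adjusted p = 0.000672) and NDB2 (log2 -0.56 ± 0.09, adjusted p = 0.000364) were lower. Of 12 markers of reactive oxygen species 1 was higher and 2 lower (median -0.41, and -0.65 without opt3-2 replicate 3). The one higher was DREB2A, a factor of the drought and heat response (log2 0.67 ± 0.24, adjusted p = 0.0411, or 0.0791 to 0.143 without opt3-2 replicate 1, 2 or 3 or wild type replicate 1 or 3, or 0.232 by limma-voom, or 0.0507 with library sizes alone). The 2 lower were the NADPH oxidases RBOHD (log2 -1.0 ± 0.28, adjusted p = 0.014, or 0.051 to 0.0518 without opt3-2 replicate 1 or wild type replicate 1) and RBOHF (log2 -0.60 ± 0.11, adjusted p = 0.0013).

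Sulfur genes were higher more often than lower. Of 22 genes of sulfate uptake and assimilation 11 were higher and 3 lower (median 0.39), and of 10 markers of sulfur limitation 7 were higher and 0 lower (median 0.53). LSU1, a marker of low sulfur, had 9.99, 9.77 and 6.03 CPM in opt3-2 shoots, against 0.372, 1.19 and 0.429 CPM in wild type shoots (log2 3.66 ± 0.37, adjusted p = 2.27e-05, and log2 4.40 without wild type replicate 2). The related LSU2 (log2 0.48 ± 0.15, adjusted p = 0.0213, or 0.0619 to 0.0704 without opt3-2 replicate 1 or 3 or wild type replicate 1 or 3, or 0.0775 by limma-voom, or 0.0622 with library sizes alone) and LSU3 (log2 1.48 ± 0.24, adjusted p = 0.000493) and the markers SDI1 (log2 0.63 ± 0.22, adjusted p = 0.0335, or 0.0686 to 0.168 without opt3-2 replicate 1 or 2 or wild type replicate 2 or 3, or 0.185 by limma-voom, or 0.0654 with library sizes alone) and SDI2 (log2 0.57 ± 0.13, adjusted p = 0.0044) were higher, as was GGCT2;1, which breaks down glutathione (log2 1.53 ± 0.19, adjusted p = 7.97e-05). SULTR2;1, a sulfate carrier of vascular tissue, had 337, 306 and 312 CPM in opt3-2 shoots, against 152, 192 and 148 CPM in wild type shoots (log2 0.96 ± 0.10, adjusted p = 3.13e-05), with no overlap. APR1, the reductase at the controlled step of assimilation, was higher (log2 1.16 ± 0.12, adjusted p = 1.88e-05) and SULTR3;3 lower (log2 -1.40 ± 0.15, adjusted p = 3.38e-05). SULTR1;3, a phloem sulfate carrier, had 0.392, 0.391 and 0.374 CPM in opt3-2 shoots, against 0, 0.0341 and 0.033 CPM in wild type shoots, with wild type under the floor.

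Genes of aliphatic glucosinolates, the methionine-derived defence compounds of the leaf, were higher at most steps of the route. Of 24 tested, 22 were higher and 0 lower, 16 of them by 2-fold or more, with a median log2 fold change of 1.34, and the counts were 22 and 0 under all 15 alternatives. At the start of methionine chain elongation BCAT4, an aminotransferase, had 249, 244 and 283 CPM in opt3-2 shoots, against 67.3, 79.98 and 71.6 CPM in wild type shoots (log2 1.82 ± 0.11, adjusted p = 6.21e-07). MAM1 (AT5G23010, chr5:7703041-7706973 on the plus strand of TAIR10.1), the condensing enzyme that adds a carbon in each round, had 504, 497 and 561 CPM in opt3-2 shoots, against 107, 140.1 and 114 CPM in wild type shoots (log2 2.11 ± 0.11, adjusted p = 2.51e-07). The carrier BAT5, which brings the oxo acids into the chloroplast, had 57, 53.7 and 71.4 CPM in opt3-2 shoots, against 18.18, 22.3 and 20.3 CPM in wild type shoots (log2 1.58 ± 0.13, adjusted p = 4.54e-06). In each of these genes all opt3-2 libraries lay above all wild type libraries by a wide gap. The further elongation genes MAM3 (log2 1.82 ± 0.19, adjusted p = 3.33e-05), IPMI1 (log2 1.21 ± 0.15, adjusted p = 7.97e-05), IPMI2 (log2 1.62 ± 0.09, adjusted p = 3.28e-07) and IMD1 (log2 1.91 ± 0.11, adjusted p = 6.32e-07) were higher by over 2-fold, and IIL1, the large isomerase subunit that leucine synthesis shares, by less (log2 0.55 ± 0.05, adjusted p = 1.46e-05).

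Core synthesis followed the same direction. CYP79F1, the first enzyme of the core route, had 212, 209.9 and 283 CPM in opt3-2 shoots, against 57.5, 61.7 and 56.3 CPM in wild type shoots (log2 2.01 ± 0.13, adjusted p = 1.63e-06). Its relative CYP79F2 (log2 1.3 ± 0.14, adjusted p = 2.27e-05) and the next oxidase CYP83A1 (log2 1.31 ± 0.10, adjusted p = 2.56e-06) were higher too, with no overlap in any of them. The transferases GSTF11 (log2 1.77 ± 0.24, adjusted p = 0.000131) and GSTU20 (log2 1.37 ± 0.17, adjusted p = 0.00013), the lyase SUR1 (log2 0.36 ± 0.07, adjusted p = 0.000996), the glucosyltransferase UGT74C1 (log2 0.65 ± 0.12, adjusted p = 0.00092) and the sulfotransferases SOT17 (log2 0.64 ± 0.16, adjusted p = 0.00632) and SOT18 (log2 0.76 ± 0.11, adjusted p = 0.000215) complete the core. Of the side chain oxygenases FMO_GS-OX1 (log2 1.26 ± 0.21, adjusted p = 0.000599) and FMO_GS-OX3 (log2 1.7 ± 0.17, adjusted p = 2.15e-05) were higher and FMO_GS-OX5 did not pass (log2 0.08 ± 0.06, adjusted p = 0.322). The MYB activators of the route differed in size. MYB29 had 64, 69.1 and 93.9 CPM in opt3-2 shoots, against 18.1, 23.1 and 17.8 CPM in wild type shoots (log2 1.94 ± 0.19, adjusted p = 2.08e-05). MYB28 was 1.4-fold higher (log2 0.49 ± 0.10, adjusted p = 0.00166), and MYB76, at a low level, was also higher (log2 1.21 ± 0.28, adjusted p = 0.00872).

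The tryptophan-derived branch did not move as a block. Of 14 genes of indole glucosinolates and camalexin 2 were higher and 4 lower (median -0.19), and 8 were lower without wild type replicate 2. CYP71A12, which acts in the branch to indole carbonyl compounds and camalexin, had 52.9, 49.6 and 48.4 CPM in opt3-2 shoots, against 9.38, 5.97 and 10.06 CPM in wild type shoots (log2 2.57 ± 0.18, adjusted p = 3.35e-06). Its neighbour in the family CYP71A13 had 18.8, 12.4 and 12.7 CPM in opt3-2 shoots, against 36.5, 29.4 and 35.2 CPM in wild type shoots (log2 -1.20 ± 0.19, adjusted p = 0.000442). PAD3, the last enzyme of camalexin synthesis, had 6.23, 4.86 and 6.54 CPM in opt3-2 shoots, against 34.4, 17.42 and 32.4 CPM in wild type shoots (log2 -2.24 ± 0.23, adjusted p = 3.54e-05). The groups did not overlap in these 3 genes, of which the first was higher and the others lower in opt3-2.

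**Figure D3:**
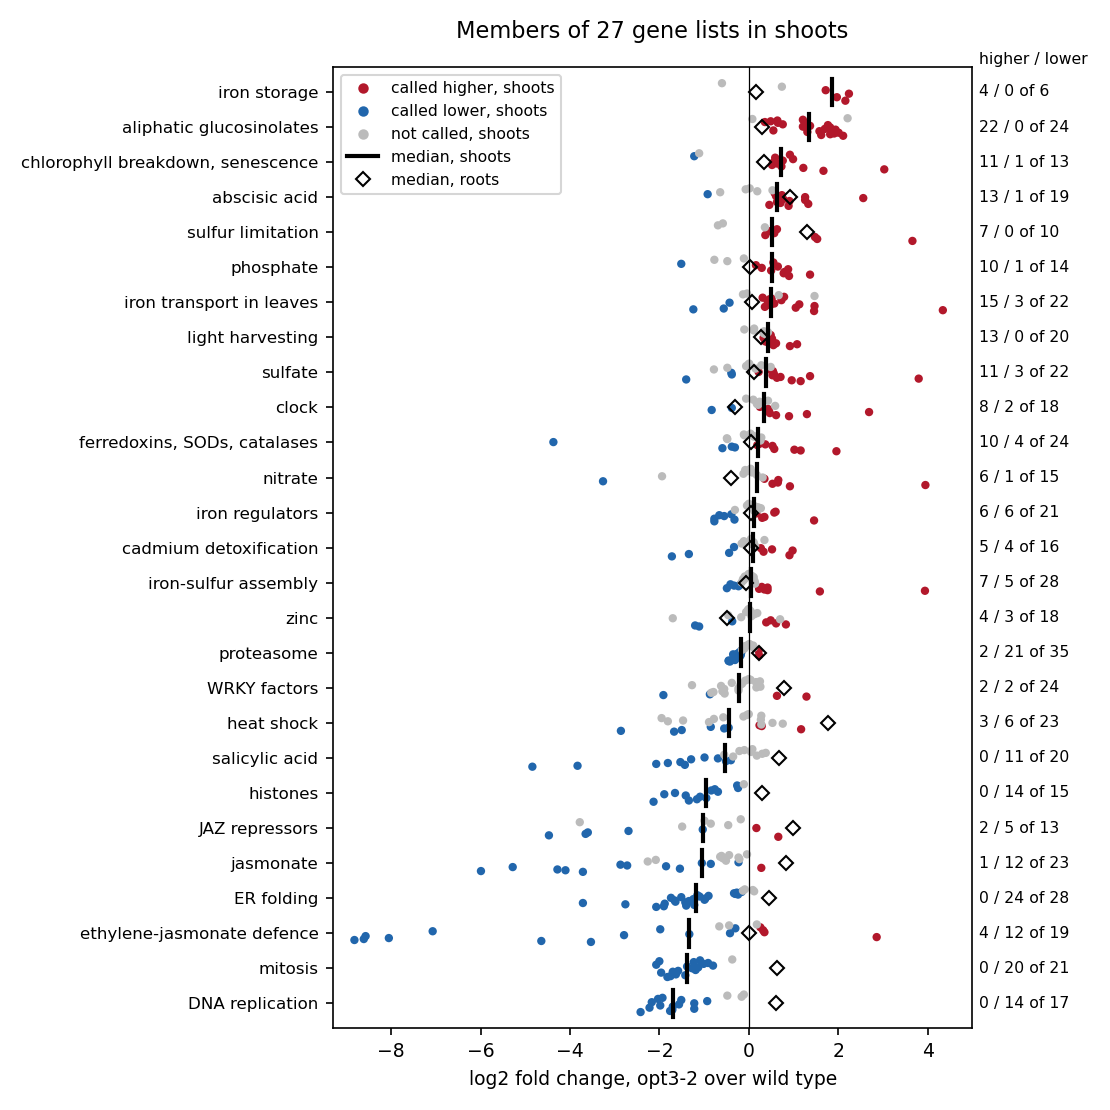
Log2 fold change of opt3-2 over wild type in shoots (horizontal axis) for the members of 27 gene lists (rows), with points red where called higher, blue where called lower and grey where not called. Bars are list medians in shoots, diamonds are list medians in roots, and the numbers at the right give members higher and lower of those tested. Iron storage (1.85) and aliphatic glucosinolates (1.34) have the highest shoot medians, and DNA replication (-1.70) and mitosis (-1.38) the lowest.

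Defence genes under ethylene and jasmonate were lower in opt3-2 shoots. Jasmonate and ethylene together switch on plant defensins through factors such as ORA59, while jasmonate with MYC factors switches on wound genes such as VSP1. Of 19 ethylene and jasmonate defence genes 4 were higher and 12 lower (median -1.33), with 2 higher without opt3-2 replicate 2 or wild type replicate 1. PDF1.2A (AT5G44420, chr5:17906968-17907638 on the minus strand of TAIR10.1), the standard defensin marker, had 3.06, 4.47 and 11.2 CPM in opt3-2 shoots, against 2426, 349.7 and 2170 CPM in wild type shoots (log2 -8.05 ± 0.83, adjusted p = 5.24e-05, and log2 -8.80 without opt3-2 replicate 3). PDF1.2B (AT2G26020, chr2:11089123-11089805 on the plus strand of TAIR10.1) had 0.235, 0.838 and 1.17 CPM in opt3-2 shoots, against 451, 77.2 and 447 CPM in wild type shoots (log2 -8.82 ± 0.81, adjusted p = 2.74e-05). Wild type replicate 2 held a small share of the level of the other wild type libraries in both genes, but remained far above all opt3-2 libraries. PDF1.2C (log2 -8.61 ± 0.83, adjusted p = 3.54e-05) and PDF1.3 (log2 -8.57 ± 0.96, adjusted p = 8.74e-05) fell alike. These genes are close copies of each other, so reads may have been assigned between them. PDF1.4 is set apart: it had 18.7, 14.2 and 12.3 CPM in opt3-2 shoots, against 1.32, 3.41 and 1.45 CPM in wild type shoots (log2 2.86 ± 0.35, adjusted p = 8.13e-05).

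ORA59, the factor that binds the GCC box of defensin promoters, had 2.78, 3.46 and 3.46 CPM in opt3-2 shoots, against 26.49, 12.3 and 28.1 CPM in wild type shoots (log2 -2.79 ± 0.34, adjusted p = 0.000111). PR4, a chitin-binding protein, had 50.3, 53.4 and 54.4 CPM in opt3-2 shoots, against 786, 329 and 714 CPM in wild type shoots (log2 -3.53 ± 0.27, adjusted p = 7.12e-06). PR3, a basic chitinase, had 8.03, 5.81 and 6.08 CPM in opt3-2 shoots, against 236, 69.2 and 194 CPM in wild type shoots (log2 -4.64 ± 0.41, adjusted p = 1.96e-05). In these 3 genes wild type replicate 2 lay between the other wild type libraries and opt3-2. Without it the median of the list was -1.49, with 3 genes higher and 12 lower. ACO4, an ethylene-forming oxidase, was lower (log2 -1.33 ± 0.19, adjusted p = 0.000274), and EIN3, the ethylene response factor itself, was higher (log2 0.35 ± 0.07, adjusted p = 0.00224). PDF1.1 was at 0 in all opt3-2 libraries and had 0.702, 0.136 and 0.858 CPM in wild type, which is at least 3.99-fold lower in opt3-2 against a floor of 3 counts per library.

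The upstream sequences of the 2 defensins are shown because each holds the GCC box, GCCGCC, in capitals. They are the 250 bases before the RefSeq start on TAIR10.1, 5′ to 3′ on the gene's strand, and the box begins 222 bases before the start of PDF1.2A and 143 bases before that of PDF1.2B.
PDF1.2A, chr5:17907639-17907888 minus strand: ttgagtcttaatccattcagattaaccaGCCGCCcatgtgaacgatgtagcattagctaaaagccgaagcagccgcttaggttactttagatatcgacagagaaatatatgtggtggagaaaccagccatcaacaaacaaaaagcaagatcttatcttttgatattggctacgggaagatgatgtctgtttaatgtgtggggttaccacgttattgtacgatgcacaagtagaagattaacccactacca
PDF1.2B, chr2:11088873-11089122 plus strand: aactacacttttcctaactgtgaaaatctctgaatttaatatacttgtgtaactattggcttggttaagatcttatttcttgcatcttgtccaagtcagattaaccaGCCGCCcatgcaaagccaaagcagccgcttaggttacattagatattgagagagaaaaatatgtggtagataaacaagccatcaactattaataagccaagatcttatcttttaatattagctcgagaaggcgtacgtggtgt
Searched on both strands from 250 bases before to 50 after the start, the box is in 3 of 19 promoters of the list, the third being that of ORA59, and in 2.57% of 27443 promoters.

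Jasmonate synthesis and response had 1 of 23 genes higher and 12 lower (median -1.05), and 1 higher and 18 lower without wild type replicate 2 (median -1.24). By limma-voom 9 were lower. Along the synthesis route, the lipoxygenase LOX2 had 592, 722 and 1077 CPM in opt3-2 shoots, against 1594, 1158 and 1557 CPM in wild type shoots (log2 -0.85 ± 0.21, adjusted p = 0.00723). LOX3 had 22.6, 26.2 and 24.8 CPM in opt3-2 shoots, against 147, 30.3 and 135 CPM in wild type shoots and did not pass (log2 -2.08 ± 0.88, adjusted p = 0.0826, or 0.0469 without wild type replicate 2). All opt3-2 libraries lay just below wild type replicate 2 and far below the other wild type libraries. LOX4 (log2 -2.26 ± 0.85, adjusted p = 0.0535, or 0.0359 without wild type replicate 2) and LOX6 (log2 -0.21 ± 0.09, adjusted p = 0.0831, or 0.0335 without wild type replicate 2) did not pass either. AOS, the allene oxide synthase, did not pass (log2 -0.44 ± 0.45, adjusted p = 0.465). Of the allene oxide cyclases, close copies of each other, AOC3 (log2 -2.87 ± 0.68, adjusted p = 0.00688, or 0.0973 by limma-voom) and AOC4 (log2 -0.23 ± 0.08, adjusted p = 0.0381, or 0.0727 to 0.153 without opt3-2 replicate 1 or 2 or wild type replicate 1 or 3, or 0.0886 by DESeq2) were lower and AOC1 (log2 -0.58 ± 0.25, adjusted p = 0.087, or 0.00811 without wild type replicate 2) and AOC2 (log2 -0.51 ± 0.21, adjusted p = 0.0728, or 0.00235 without wild type replicate 2) did not pass. OPR3, the reductase that follows, had 36, 43.9 and 48.2 CPM in opt3-2 shoots, against 193, 80.4 and 188 CPM in wild type shoots (log2 -1.85 ± 0.41, adjusted p = 0.0048). OPCL1 (log2 -0.64 ± 0.40, adjusted p = 0.22), ACX1 (log2 -0.04 ± 0.08, adjusted p = 0.711) and JAR1, which makes the active isoleucine conjugate (log2 -0.23 ± 0.10, adjusted p = 0.0995, or 0.00146 without wild type replicate 2), did not pass.

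Jasmonate breakdown and response genes held the largest falls of the list. CYP94B3, an oxidase that inactivates the conjugate, had 0.157, 0.223 and 0.608 CPM in opt3-2 shoots, against 17.7, 1.84 and 19 CPM in wild type shoots (log2 -5.28 ± 1.12, adjusted p = 0.00377, or 0.173 by limma-voom, and log2 -6.09 without opt3-2 replicate 3). VSP1, a vegetative storage protein, had 8.3, 7.43 and 29.2 CPM in opt3-2 shoots, against 316, 177 and 278 CPM in wild type shoots (log2 -4.10 ± 0.50, adjusted p = 0.000144, and log2 -5.02 without opt3-2 replicate 3). TAT3, a tyrosine aminotransferase, had 8.5, 8.38 and 13.9 CPM in opt3-2 shoots, against 162, 88.6 and 153 CPM in wild type shoots (log2 -3.71 ± 0.32, adjusted p = 1.67e-05). In all 3 the groups did not overlap, wild type replicate 2 was the lowest of its group and opt3-2 replicate 3 the highest of its own. NATA1, an acetyltransferase of the wound response, was lower (log2 -4.28 ± 0.57, adjusted p = 0.00025, and log2 -5.19 without opt3-2 replicate 3). The thionin THI2.1 had 0.0784, 0 and 0.14 CPM in opt3-2 shoots, against 5.04, 7.06 and 3.33 CPM in wild type shoots (log2 -5.99 ± 0.54, adjusted p = 2.32e-05, and log2 -6.69 without opt3-2 replicate 3), with 5 counts in all opt3-2 libraries. Here wild type replicate 2 was the highest of its group. COI1, the jasmonate receptor, was higher by a little (log2 0.28 ± 0.06, adjusted p = 0.00171), and MYC2, its main factor, did not pass (log2 -0.61 ± 0.47, adjusted p = 0.321).

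**Figure D4:**
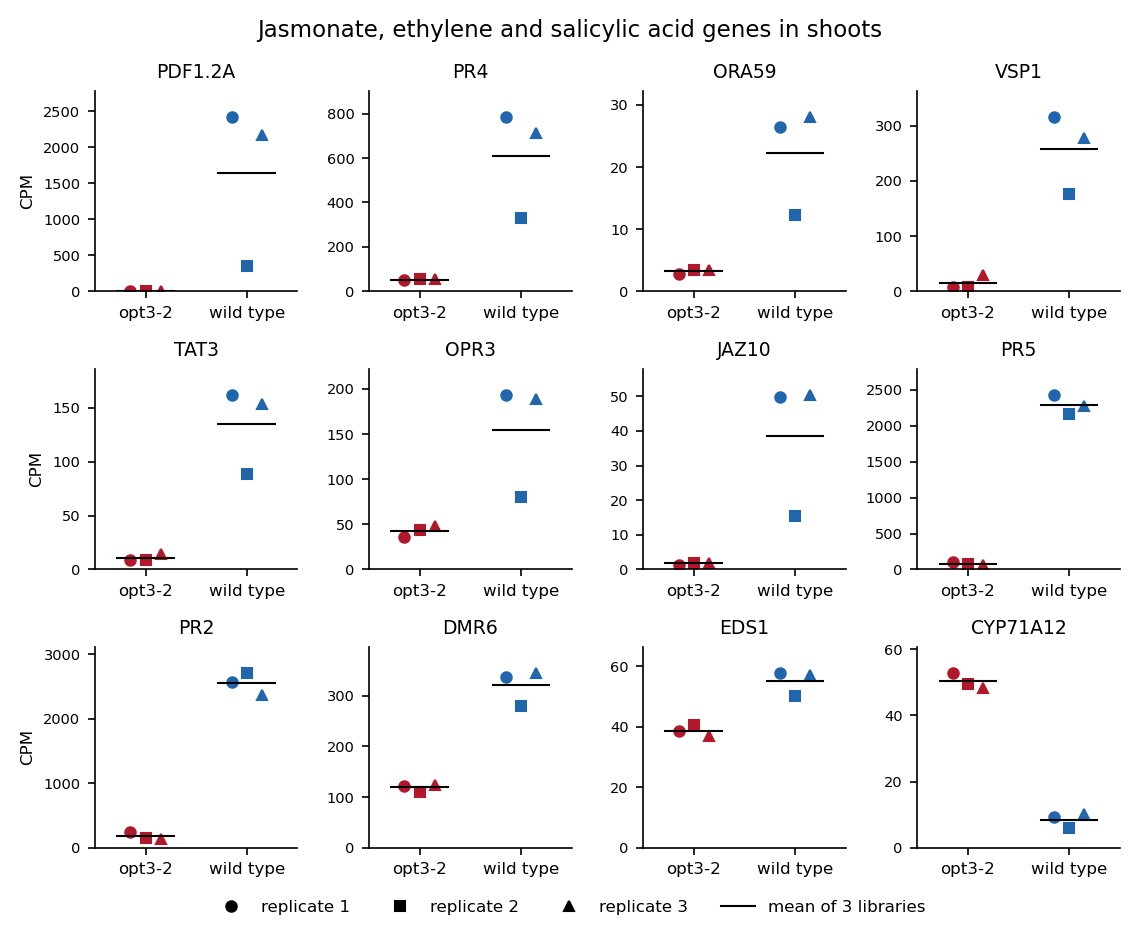
Level in CPM (vertical axes, each starting at 0) of 12 defence and hormone genes in the 3 opt3-2 shoot libraries (left of each panel, red) and the 3 wild type shoot libraries (right, blue). Points are libraries, with a shape per replicate, and bars are means of 3. Wild type replicate 2 (square) is below the other wild type libraries in panels that include PDF1.2A, PR4, ORA59, VSP1, TAT3, OPR3, JAZ10, PR5, DMR6 and CYP71A12. CYP71A12 is the gene of this set that is higher in opt3-2.

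The JAZ genes encode repressors that jasmonate destroys and whose own transcription it induces. Of 13 tested, 2 were higher and 5 lower (median -1.03), and the libraries of the groups did not overlap in any of the 13, against no overlap in 53.0% of all genes. JAZ10 had 1.29, 2.01 and 1.96 CPM in opt3-2 shoots, against 49.8, 15.3 and 50.4 CPM in wild type shoots (log2 -4.47 ± 0.74, adjusted p = 0.000894). JAZ7 had 0.47, 0.838 and 0.608 CPM in opt3-2 shoots, against 9.75, 2.28 and 10.8 CPM in wild type shoots (log2 -3.60 ± 0.91, adjusted p = 0.00937, or 0.127 by limma-voom). JAZ5 (log2 -2.69 ± 0.85, adjusted p = 0.0276, or 0.0668 to 0.0991 without opt3-2 replicate 1 or 2 or wild type replicate 1 or 3, or 0.0962 by limma-voom), JAZ9 (log2 -1.03 ± 0.34, adjusted p = 0.0322, or 0.0662 to 0.101 without opt3-2 replicate 1, 2 or 3 or wild type replicate 1 or 3, or 0.0533 by DESeq2) and JAZ13 (log2 -3.65 ± 0.89, adjusted p = 0.00691) were lower as well. JAZ8 had 0.196, 0.223 and 0.0935 CPM in opt3-2 shoots, against 2.81, 0.716 and 3.66 CPM in wild type shoots and did not pass (log2 -3.78 ± 1.73, adjusted p = 0.106), and neither did JAZ2, JAZ3, JAZ4, JAZ6 and JAZ1, the last of which passed without wild type replicate 2 (adjusted p = 0.0355). JAZ11 (log2 0.66 ± 0.08, adjusted p = 9.12e-05) and JAZ12 (log2 0.17 ± 0.06, adjusted p = 0.0326, or 0.0852 to 0.105 without opt3-2 replicate 1 or 2 or wild type replicate 1 or 3, or 0.266 with library sizes alone) were higher. The number lower depended on the fit. It was 10 with the shoot libraries alone, 7 with library sizes alone, 6 without wild type replicate 2 and 4 without opt3-2 replicate 3. It was 3 by limma-voom, with the replicate block or on leaving out wild type replicate 1, wild type replicate 3, opt3-2 replicate 1 or opt3-2 replicate 2. It was 2 with only the shoot columns of run suffixes 2 and 3, a setting that also leaves out wild type replicate 3.

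In the main fit salicylic acid genes were lower or not called. Of 20 tested, 0 were higher and 11 lower, 7 of them by 2-fold or more (median -0.53). With the shoot libraries alone 3 were higher and 12 lower, and by DESeq2 or with RLE scaling 1 was higher and 11 lower. Without opt3-2 replicate 1 the median was -0.96 with 12 lower, and without opt3-2 replicate 2 there were 8 lower. PR5, a thaumatin-like protein, had 103, 76.7 and 59.7 CPM in opt3-2 shoots, against 2431, 2169 and 2276 CPM in wild type shoots (log2 -4.84 ± 0.21, adjusted p = 1.23e-07). PR2, a glucanase, had 246, 148 and 141 CPM in opt3-2 shoots, against 2561, 2706 and 2363 CPM in wild type shoots (log2 -3.83 ± 0.23, adjusted p = 9.47e-07). Wild type replicate 2 did not stand apart in PR5 and PR2, unlike in jasmonate genes such as VSP1 and TAT3. In DMR6 and EDS5, given below, it was the lowest of its group. PR1, the third classical marker, had 162, 87.4 and 71.2 CPM in opt3-2 shoots, against 165, 142 and 162 CPM in wild type shoots and did not pass (log2 -0.55 ± 0.25, adjusted p = 0.101, or 0.00038 without opt3-2 replicate 1). Genes of salicylic acid metabolism also differed. DMR6, a hydroxylase that turns salicylic acid over, had 122.7, 110.2 and 124 CPM in opt3-2 shoots, against 338, 279.8 and 345 CPM in wild type shoots (log2 -1.43 ± 0.09, adjusted p = 1.1e-06). DLO1, its relative, had 18.8, 11.4 and 7.29 CPM in opt3-2 shoots, against 53.8, 53.7 and 50.9 CPM in wild type shoots (log2 -2.07 ± 0.24, adjusted p = 8.82e-05). The groups did not overlap in either. On the supply side ICS1, the isochorismate synthase, had 24.2, 24.7 and 27.3 CPM in opt3-2 shoots, against 31.5, 35 and 34.1 CPM in wild type shoots (log2 -0.40 ± 0.07, adjusted p = 0.000652). EDS5, which exports the precursor from the chloroplast, had 3.56, 3.46 and 5.33 CPM in opt3-2 shoots, against 17, 10.3 and 16.2 CPM in wild type shoots (log2 -1.81 ± 0.23, adjusted p = 0.000145). Both had all opt3-2 libraries below all wild type libraries.

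Among the regulators of that pathway EDS1 was lower (log2 -0.51 ± 0.08, adjusted p = 0.000274), PAD4 (log2 0.30 ± 0.21, adjusted p = 0.269) and SAG101 (log2 -0.35 ± 0.15, adjusted p = 0.0884), its partners, did not pass, and neither did the receptors NPR1 (log2 0.18 ± 0.08, adjusted p = 0.0934), NPR3 (log2 0.08 ± 0.30, adjusted p = 0.867) and NPR4 (log2 0.05 ± 0.07, adjusted p = 0.598). The NPR1 interactors NIMIN1 (log2 -0.99 ± 0.32, adjusted p = 0.0268, or 0.0892 to 0.0942 without opt3-2 replicate 2 or wild type replicate 1, or 0.0529 by limma-voom) and NIMIN2 (log2 -1.53 ± 0.22, adjusted p = 0.00019) were lower. Of 24 WRKY factors 2 were higher and 2 lower (median -0.23), namely WRKY8 (log2 1.29 ± 0.14, adjusted p = 2.8e-05) and WRKY6 (log2 0.63 ± 0.16, adjusted p = 0.00806), and WRKY18 (log2 -1.91 ± 0.54, adjusted p = 0.016, or 0.0515 to 0.0522 without opt3-2 replicate 3 or wild type replicate 1 or 3, or 0.0816 by limma-voom) and WRKY55 (log2 -0.87 ± 0.27, adjusted p = 0.0198, or 0.0647 to 0.0964 without opt3-2 replicate 1 or 3 or wild type replicate 2, or 0.0935 by limma-voom). The count of lower WRKY factors was 5 without wild type replicate 2, 1 without opt3-2 replicate 1 or wild type replicate 1 or 3, and 0 without opt3-2 replicate 3 or by limma-voom. The median was -0.35 without opt3-2 replicate 1 and -0.15 without opt3-2 replicate 3. WRKY18 had 16.4, 13.5 and 13.7 CPM in opt3-2 shoots, against 73, 20.7 and 71.4 CPM in wild type shoots, so that wild type replicate 2 lay close to the opt3-2 libraries.

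Chaperones and folding enzymes of the endoplasmic reticulum were lower in opt3-2 shoots. The cell raises these genes through bZIP factors when unfolded protein accumulates in that compartment. Of 28 tested, 0 were higher and 24 lower, 16 by 2-fold or more (median -1.19), and 21 to 25 were lower over the alternatives. The chaperone BIP2 (AT5G42020, chr5:16807342-16810693 on the minus strand of TAIR10.1) had 63.5, 62.4 and 62.3 CPM in opt3-2 shoots, against 274, 267 and 250.4 CPM in wild type shoots (log2 -2.07 ± 0.09, adjusted p = 8.39e-08). BIP1 had 122, 109.7 and 125 CPM in opt3-2 shoots, against 459, 416 and 436 CPM in wild type shoots (log2 -1.88 ± 0.09, adjusted p = 1.29e-07). BIP3, the strongly inducible copy, had 2.62, 1.45 and 1.5 CPM in opt3-2 shoots, against 24.4, 24.3 and 26.2 CPM in wild type shoots (log2 -3.71 ± 0.17, adjusted p = 1.47e-07). In each of the 3 copies both groups were tight and far apart. BIP1 and BIP2 are near-identical, so their reads may have been assigned between them.

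The lectin chaperones behaved the same way. Calnexin CNX1 had 77.8, 74.8 and 87.4 CPM in opt3-2 shoots, against 311, 291 and 294 CPM in wild type shoots (log2 -1.90 ± 0.08, adjusted p = 8.39e-08). The calreticulins CRT1A (log2 -1.42 ± 0.07, adjusted p = 2.19e-07), CRT1B (log2 -1.24 ± 0.08, adjusted p = 7.99e-07) and CRT3 (log2 -1.40 ± 0.06, adjusted p = 8.39e-08) were lower. SHD, the HSP90 of the compartment, had 259, 276 and 277 CPM in opt3-2 shoots, against 867, 833 and 860.5 CPM in wild type shoots (log2 -1.66 ± 0.09, adjusted p = 2.58e-07), with no overlap. The DnaJ cochaperones ERDJ3A (log2 -1.51 ± 0.11, adjusted p = 2.77e-06), ERDJ3B (log2 -1.34 ± 0.07, adjusted p = 2.43e-07) and P58IPK (log2 -0.97 ± 0.06, adjusted p = 1.1e-06), and SDF2 of the same complex (log2 -1.22 ± 0.06, adjusted p = 1.08e-07), fell too. All 8 protein disulfide isomerases tested were lower, the largest fall being that of PDIL2-2, with 3.84, 2.74 and 2.66 CPM in opt3-2 shoots, against 22.4, 19 and 22.2 CPM in wild type shoots (log2 -2.76 ± 0.13, adjusted p = 1.08e-07). PDIL1-2 was 3.11-fold lower (log2 -1.64 ± 0.08, adjusted p = 2.19e-07) and PDIL5-1 1.2-fold lower (log2 -0.27 ± 0.07, adjusted p = 0.0111). The oxidase that recharges the isomerases, ERO1, had 4.7, 4.41 and 5.28 CPM in opt3-2 shoots, against 16.8, 13.6 and 18 CPM in wild type shoots (log2 -1.74 ± 0.12, adjusted p = 1.67e-06).

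The 4 members not called were sensors and factors upstream, IRE1A (log2 -0.13 ± 0.06, adjusted p = 0.12, or 0.0339 without wild type replicate 2), IRE1B (log2 0.12 ± 0.05, adjusted p = 0.0852), BZIP28 (log2 0.09 ± 0.07, adjusted p = 0.301) and BZIP60 (log2 -0.09 ± 0.10, adjusted p = 0.513), while a further factor, BZIP17, was lower by a little (log2 -0.24 ± 0.05, adjusted p = 0.0024). The bZIP60 messenger is activated by splicing, which gene counts do not show.

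Promoters of 3 of the lower genes are shown because they hold the endoplasmic reticulum stress element, in capitals. It was searched on both strands as CCAAT, 9 bases of any kind and CCACG, or as TGACGTGG. They are the 100 bases before the RefSeq start on TAIR10.1, 5′ to 3′ on the gene's strand, and a site on the other strand reads as its reverse complement.
CRT1A, chr1:21092710-21092809 minus strand: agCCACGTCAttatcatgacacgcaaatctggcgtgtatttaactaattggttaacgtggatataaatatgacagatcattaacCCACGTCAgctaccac
SHD, chr4:12556059-12556158 minus strand: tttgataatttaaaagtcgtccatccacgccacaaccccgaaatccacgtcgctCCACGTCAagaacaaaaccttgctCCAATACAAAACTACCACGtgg
PDIL1-2, chr1:29126548-29126647 plus strand: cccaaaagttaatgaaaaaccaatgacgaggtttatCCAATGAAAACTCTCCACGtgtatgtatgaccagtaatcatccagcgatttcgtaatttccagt
CRT1A and SHD hold 2 matches each and PDIL1-2 holds 1. Within 250 bases before to 50 after the start, 8 of the 28 promoters of the list hold a match (28.6%), against 1.83% of 27443 promoters. BIP1 and BIP3 are not among the 8, and HRD3A, which is among them, was lower by only 1.12-fold (log2 -0.16 ± 0.06, adjusted p = 0.0406, or 0.0635 to 0.103 without opt3-2 replicate 1, 2 or 3 or wild type replicate 1 or 2, or 0.149 by DESeq2).

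Cytosolic protein turnover and heat shock genes moved less. Of 35 proteasome genes 2 were higher and 21 lower, none by 2-fold (median -0.17). Over the alternatives 15 to 25 were lower, the most with library sizes alone, and the median ran from -0.13 to -0.26. Among the core subunits PBD1 had 24.9, 25.9 and 26.1 CPM in opt3-2 shoots, against 35.7, 34.8 and 32.3 CPM in wild type shoots (log2 -0.42 ± 0.05, adjusted p = 0.000104). PAG1 (log2 -0.45 ± 0.07, adjusted p = 0.000238) and PAF1 (log2 -0.31 ± 0.05, adjusted p = 0.000531) were lower by similar amounts. Also lower were RPT2B of the regulatory particle (log2 -0.45 ± 0.07, adjusted p = 0.000466) and the core subunit PBA1 (log2 -0.31 ± 0.05, adjusted p = 0.000687). The factors NAC53 (log2 0.22 ± 0.08, adjusted p = 0.04, or 0.0864 to 0.13 without opt3-2 replicate 2 or 3 or wild type replicate 1 or 2, or 0.057 by limma-voom, or 0.169 with library sizes alone) and NAC78 (log2 0.23 ± 0.06, adjusted p = 0.00807), which switch on proteasome genes, were the 2 that were higher. Of 23 heat shock genes 3 were higher and 6 lower (median -0.45, but -0.20 without wild type replicate 2), and 2 to 4 were higher on leaving out a library. HSP18.2 had 1.14, 1.28 and 1.54 CPM in opt3-2 shoots, against 4.92, 4.23 and 3.5 CPM in wild type shoots (log2 -1.67 ± 0.23, adjusted p = 0.000128). HSP70 (log2 -0.55 ± 0.14, adjusted p = 0.00884) and HSP101 (log2 -0.45 ± 0.12, adjusted p = 0.009, or 0.0608 by limma-voom) were lower, as were the small heat shock proteins HSP17.6II (log2 -2.86 ± 0.47, adjusted p = 0.000549) and HSP23.5 (log2 -1.50 ± 0.33, adjusted p = 0.00303) and the factor HSFA7A (log2 -0.85 ± 0.23, adjusted p = 0.0109). Higher were HSP26.5 (log2 1.17 ± 0.27, adjusted p = 0.00432, or 0.0636 by limma-voom), the heat shock factor HSFA1A (log2 0.29 ± 0.09, adjusted p = 0.0159, or 0.0551 without opt3-2 replicate 1, or 0.0983 with library sizes alone) and the coactivator MBF1C (log2 0.24 ± 0.07, adjusted p = 0.0169, or 0.0619 to 0.064 without opt3-2 replicate 3 or wild type replicate 1, or 0.057 by limma-voom, or 0.123 with library sizes alone).

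DNA replication genes were lower in opt3-2 shoots. They are expressed in dividing cells. Of 17 tested, 0 were higher and 14 lower, 13 by 2-fold or more (median -1.70), and 13 to 15 were lower over the alternatives. PCNA1 (AT1G07370, chr1:2263037-2264553 on the plus strand of TAIR10.1), the sliding clamp of the polymerase, had 1.06, 1.34 and 1.12 CPM in opt3-2 shoots, against 7.85, 5.28 and 5.71 CPM in wild type shoots (log2 -2.42 ± 0.19, adjusted p = 3.55e-06). MCM2, a subunit of the replicative helicase, had 2.35, 2.46 and 4.49 CPM in opt3-2 shoots, against 15.1, 9.96 and 16.6 CPM in wild type shoots (log2 -2.17 ± 0.25, adjusted p = 6.09e-05). MCM6 had 1.41, 1.51 and 2.38 CPM in opt3-2 shoots, against 8.55, 6.38 and 9.7 CPM in wild type shoots (log2 -2.22 ± 0.20, adjusted p = 8.24e-06). No libraries overlapped in these genes, and wild type replicate 2 was the lowest of its group in each. Of the other helicase subunits MCM4 (log2 -1.76 ± 0.14, adjusted p = 4.05e-06), MCM5 (log2 -1.71 ± 0.14, adjusted p = 4.46e-06) and MCM7 (log2 -1.70 ± 0.16, adjusted p = 1.26e-05) were lower and MCM3 was not called (log2 -0.16 ± 0.08, adjusted p = 0.116).

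The origin factors CDT1A (log2 -1.56 ± 0.17, adjusted p = 2.74e-05), ORC1A (log2 -1.93 ± 0.49, adjusted p = 0.00745), ORC1B (log2 -1.51 ± 0.25, adjusted p = 0.000517) and CDC45 (log2 -2.03 ± 0.40, adjusted p = 0.00169, and log2 -2.80 without opt3-2 replicate 3) were lower and CDC6A did not pass (log2 -0.48 ± 0.24, adjusted p = 0.124, or 0.0463 without wild type replicate 2). For nucleotide supply, the ribonucleotide reductase subunits RNR1 (log2 -1.22 ± 0.10, adjusted p = 5.43e-06) and TSO2 (log2 -0.93 ± 0.13, adjusted p = 0.000216) were lower and RNR2A did not pass (log2 -0.11 ± 0.08, adjusted p = 0.279, or 0.0215 without opt3-2 replicate 1). Promoters of 3 helicase genes are shown because they hold an E2F site, the element of S phase genes, in capitals, searched as TTTCCCGC, TTTGGCGC or TTCCCGCC on both strands. They are the 100 bases before the RefSeq start on TAIR10.1, 5′ to 3′ on the gene's strand, and a site on the other strand reads as its reverse complement.
MCM2, chr1:16970114-16970213 plus strand: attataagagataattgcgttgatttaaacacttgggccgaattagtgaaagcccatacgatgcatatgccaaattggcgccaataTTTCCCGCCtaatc
MCM5, chr2:3527501-3527600 minus strand: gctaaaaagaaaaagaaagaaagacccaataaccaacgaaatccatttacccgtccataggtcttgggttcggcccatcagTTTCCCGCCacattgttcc
MCM6, chr5:18010668-18010767 minus strand: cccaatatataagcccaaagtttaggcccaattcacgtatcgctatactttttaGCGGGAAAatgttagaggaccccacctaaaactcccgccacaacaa
In MCM2 and MCM5 the capitals are 2 overlapping matches. Within 250 bases before to 50 after the start a match is in 9 of 17 replication promoters (52.9%), in 1 of 15 histone promoters, in 0 of 21 mitosis promoters and in 1.5% of 27443 promoters. MCM3, which was not called, is among the 9.

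Mitosis genes went with them. Of 21 tested, 0 were higher and 20 lower, 18 by 2-fold or more (median -1.38), and 17 to 20 were lower over the alternatives. CYCB1;3, a mitotic cyclin, had 0.627, 0.726 and 0.748 CPM in opt3-2 shoots, against 2.4, 2.46 and 2.54 CPM in wild type shoots (log2 -1.82 ± 0.17, adjusted p = 9.84e-06). CDKB2;1, a mitotic kinase of plants, had 2.04, 2.12 and 2.9 CPM in opt3-2 shoots, against 5.62, 6.68 and 6.6 CPM in wild type shoots (log2 -1.42 ± 0.14, adjusted p = 1.73e-05). CDC20.1, an activator of the ubiquitin ligase that ends mitosis, had 2.12, 1.68 and 2.43 CPM in opt3-2 shoots, against 6.24, 5.66 and 7.52 CPM in wild type shoots (log2 -1.63 ± 0.17, adjusted p = 2e-05). The groups did not overlap in these 3 genes, and wild type replicate 2 did not stand apart. HINKEL, a kinesin of cell plate formation, was lower (log2 -1.96 ± 0.23, adjusted p = 4.75e-05), as was the syntaxin KNOLLE of the same step (log2 -1.19 ± 0.18, adjusted p = 0.000262). CYCB1;1, which DNA damage also induces, was the member that did not pass, with 1.88, 2.51 and 2.2 CPM in opt3-2 shoots, against 2.6, 2.32 and 3.5 CPM in wild type shoots (log2 -0.37 ± 0.20, adjusted p = 0.163).

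Replication-dependent histones fell as well, with 0 of 15 higher and 14 lower (median -0.95). H3.1e had 2.04, 2.35 and 3.22 CPM in opt3-2 shoots, against 11.6, 9.38 and 12.2 CPM in wild type shoots (log2 -2.13 ± 0.15, adjusted p = 2.29e-06). The other H3.1 copies were lower by 2.24-fold to 3.71-fold. Histone copies are near-identical, and assignment among them is uncertain. Of 4 markers of the shoot meristem tested 0 were called in either direction. STM had 19.8, 16.3 and 11.9 CPM in opt3-2 shoots, against 15.4, 27.1 and 14.5 CPM in wild type shoots (log2 -0.25 ± 0.26, adjusted p = 0.468). KNAT1 had 24, 21.8 and 15.9 CPM in opt3-2 shoots, against 26.2, 35 and 25.7 CPM in wild type shoots (log2 -0.51 ± 0.27, adjusted p = 0.158), and WUS and CLV3 were under the floor. Their summed level ran from 30.89 to 48.42 CPM in opt3-2 and from 43.87 to 67.67 CPM in wild type, and their part in the fall of the cell cycle genes was not tested. In bulk shoots fewer dividing cells and less RNA per dividing cell cannot be told apart.

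**Figure D5:**
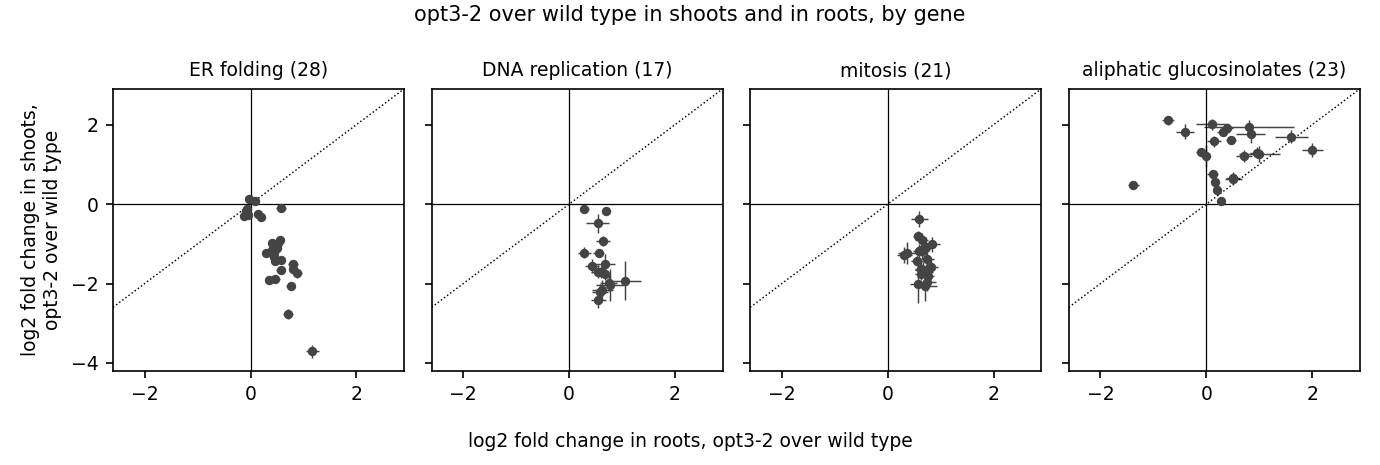
Log2 fold change of opt3-2 over wild type in shoots (vertical axis) against that in roots (horizontal axis) for members of 4 lists, with error bars of 1 SE and the line of equal change dotted. AOP3, with an SE above 1, is left out of the glucosinolate panel. Most genes of the ER, replication and mitosis panels lie at the lower right, lower in opt3-2 shoots and higher in opt3-2 roots, and the glucosinolate genes lie above the horizontal line.

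The same genotype had other effects in roots, where 3828 genes (17.5%) were higher and 4702 (21.5%) lower in opt3-2. The difference between the shoot effect and the root effect was called for 10542 genes (48.2%). Of genes higher in opt3-2 shoots 1764 were lower in opt3-2 roots (37.9% of the shoot list, 37.5% of the root list and 8.06% of all genes). Another 604 were higher in both (13.0%, 15.8% and 2.76%). Of genes lower in opt3-2 shoots 1442 were higher in opt3-2 roots (29.1%, 37.7% and 6.59%), and 457 were lower in both (9.22%, 9.72% and 2.09%). In roots 21 of the 28 ER genes, 15 of the 17 replication genes and 19 of the 21 mitosis genes were higher, and none was lower. For CNX1 the root effect was 0.35 ± 0.08 and the difference -2.25 ± 0.11 (adjusted p = 1.37e-07). For PCNA1 the root effect was 0.55 ± 0.14 and the difference -2.97 ± 0.23 (adjusted p = 3.35e-06). For CYCB1;3 it was 0.77 ± 0.11 and -2.59 ± 0.20 (adjusted p = 2.64e-06). The difference was called for 22 of 28 ER, all 17 replication and all 21 mitosis genes.

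In roots the salicylic acid list had 12 members higher and 1 lower. PR5 had a root effect of 2.3 ± 0.19 and a difference of -7.14 ± 0.28 (adjusted p = 7.8e-08). For TAT3 of the jasmonate list the root effect was 2.68 ± 0.35 and the difference -6.39 ± 0.47 (adjusted p = 5.79e-06). Aliphatic glucosinolate genes were 13 higher and 2 lower in roots (median 0.29), and the difference was called for 12 of the 24, against 48.2% of all genes. MAM1 was one of the 2 lower in roots, at -0.72 ± 0.11 there with a difference of 2.83 ± 0.16 (adjusted p = 2.67e-07). Of the iron lists, FER4 had a root effect of -0.04 ± 0.13 (difference 2.2 ± 0.17, adjusted p = 3.18e-06). The root effect of SUFB was -0.07 ± 0.06 (difference 1.66 ± 0.08, adjusted p = 1.39e-07) and that of YSL1 -0.13 ± 0.17 (difference 1.59 ± 0.19, adjusted p = 4.97e-05). ZIP4 was lower in both tissues, at -0.91 ± 0.09 in roots, and its difference of -0.20 ± 0.13 was not called (adjusted p = 0.233), which does not show that the effects are equal.

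Abscisic acid genes were mostly higher, with 13 of 19 higher and 1 lower (median 0.63). The phosphatases that restrain the hormone's signal, and that it induces, rose together. ABI1 had 187, 193 and 176 CPM in opt3-2 shoots, against 95.2, 105 and 99.6 CPM in wild type shoots (log2 0.89 ± 0.07, adjusted p = 3.35e-06). HAI1 had 35.1, 36.6 and 24.2 CPM in opt3-2 shoots, against 13, 10.6 and 14.3 CPM in wild type shoots (log2 1.33 ± 0.16, adjusted p = 6.4e-05). The groups did not overlap, and opt3-2 replicate 3 was the lowest of its group in HAI1. ABI2 (log2 0.71 ± 0.09, adjusted p = 6.54e-05), HAB1 (log2 0.63 ± 0.08, adjusted p = 6.69e-05), HAB2 (log2 0.46 ± 0.05, adjusted p = 4.55e-05), HAI2 (log2 1.26 ± 0.22, adjusted p = 0.000901) and PP2CA (log2 0.91 ± 0.12, adjusted p = 0.000103) were also higher. NCED3, the controlled step of hormone synthesis, had 45, 50.5 and 44.5 CPM in opt3-2 shoots, against 25.6, 32.4 and 25.5 CPM in wild type shoots (log2 0.74 ± 0.22, adjusted p = 0.0171, or 0.0574 to 0.0662 without opt3-2 replicate 2 or wild type replicate 1 or 3). Of the response genes RAB18 (log2 0.77 ± 0.20, adjusted p = 0.00884) and RD29B (log2 1.26 ± 0.34, adjusted p = 0.0109) were higher, RD29A did not pass (log2 0.02 ± 0.31, adjusted p = 0.98) and LTI30 was lower (log2 -0.92 ± 0.31, adjusted p = 0.0355, or 0.084 to 0.13 without opt3-2 replicate 1 or 3 or wild type replicate 1 or 3, or 0.131 by limma-voom).

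Chlorophyll breakdown and senescence had 11 of 13 genes higher and 1 lower (median 0.73). NYC1, which starts the breakdown of chlorophyll b, had 228, 242 and 217 CPM in opt3-2 shoots, against 66.1, 82.5 and 67.3 CPM in wild type shoots (log2 1.67 ± 0.13, adjusted p = 3.63e-06). Its relative NOL (log2 0.59 ± 0.11, adjusted p = 0.00137) and the genes of later steps, SGR1 (log2 0.73 ± 0.10, adjusted p = 0.000157), SGR2 (log2 0.99 ± 0.18, adjusted p = 0.000826), PPH (log2 0.63 ± 0.10, adjusted p = 0.000354), PAO (log2 0.52 ± 0.08, adjusted p = 0.000325) and RCCR (log2 0.56 ± 0.09, adjusted p = 0.000564) were higher as well. The senescence factor NAP had 225, 234 and 181 CPM in opt3-2 shoots, against 83.4, 98.9 and 91.8 CPM in wild type shoots (log2 1.22 ± 0.13, adjusted p = 2.78e-05). ORE1 was higher too (log2 0.76 ± 0.13, adjusted p = 0.000601), with no overlap in either. SAG13 was lower (log2 -1.22 ± 0.28, adjusted p = 0.00592), and SAG12, the marker of late senescence, did not pass at a low level (log2 -1.11 ± 0.57, adjusted p = 0.142).

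Chlorophyll synthesis had 8 of 27 higher (5 without wild type replicate 3) and 3 lower (median 0.06), led by GSA1 (log2 -0.54 ± 0.09, adjusted p = 0.000502), HEMB1 (log2 -0.31 ± 0.06, adjusted p = 0.00095), HEMA1 (log2 0.87 ± 0.16, adjusted p = 0.000947), FC2 (log2 0.29 ± 0.05, adjusted p = 0.00113) and CAO (log2 0.30 ± 0.08, adjusted p = 0.00686), of which GSA1 and HEMB1 were lower. Light harvesting proteins had 13 of 20 higher and 0 lower (median 0.42). LHCB4.3 had 33.8, 26.8 and 31.6 CPM in opt3-2 shoots, against 17, 13.6 and 17.65 CPM in wild type shoots (log2 0.92 ± 0.11, adjusted p = 5.78e-05). LHCB2.3 had 629.7, 843 and 1356 CPM in opt3-2 shoots, against 404, 537 and 396 CPM in wild type shoots (log2 1.08 ± 0.28, adjusted p = 0.00942), so that opt3-2 replicate 3 was the highest library. The count rested on single libraries: 3 were higher without opt3-2 replicate 3, wild type replicate 1 or wild type replicate 3, 7 without opt3-2 replicate 2, and 8 with library sizes alone. The LHCB1 copies, which are near-identical, did not pass. Of 78 chloroplast genome loci tested 7 were higher and 0 lower (3 without opt3-2 replicate 3 and 4 without wild type replicate 1), and of 47 mitochondrial loci 15 and 0 (8 without wild type replicate 1). The medians were 0.38 and 0.48, or 0.16 and 0.39 without opt3-2 replicate 3. Libraries were made from poly(A) RNA, which organelle transcripts mostly lack, so these levels may not follow the organelle pools.

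Among nutrient genes the nitrate list had 6 of 15 higher and 1 lower (median 0.18). NIR1, the nitrite reductase, had 238, 247 and 250 CPM in opt3-2 shoots, against 132, 125 and 130.2 CPM in wild type shoots (log2 0.92 ± 0.06, adjusted p = 7.99e-07). NRT2.5, a high-affinity nitrate carrier of starved plants, had 5.13, 4.41 and 3.79 CPM in opt3-2 shoots, against 0.0826, 0.239 and 0.495 CPM in wild type shoots (log2 3.95 ± 0.38, adjusted p = 1.43e-05, and log2 4.70 without wild type replicate 3). NRT1.8, which takes nitrate back out of the xylem, had 1.53, 1.56 and 1.54 CPM in opt3-2 shoots, against 21.7, 5.18 and 17.9 CPM in wild type shoots (log2 -3.26 ± 0.51, adjusted p = 0.000625), with wild type replicate 2 lowest of its group. The groups did not overlap in these 3 genes, of which NRT1.8 was the one lower. NIA1, a nitrate reductase (log2 0.65 ± 0.11, adjusted p = 0.000613), and NLP7, the nitrate-responsive factor (log2 0.53 ± 0.05, adjusted p = 1.77e-05), were higher.

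The phosphate list had 10 of 14 higher and 1 lower (median 0.52). The member that was lower, not named here, fell by 2-fold or more, and the lowest log2 fold change was -1.51. By limma-voom, or without opt3-2 replicate 1 or 3 or wild type replicate 1 or 3, 0 were lower. PAP17, an acid phosphatase of phosphate starvation, had 67.7, 75.8 and 63.9 CPM in opt3-2 shoots, against 36.3, 36.4 and 38.6 CPM in wild type shoots (log2 0.90 ± 0.10, adjusted p = 3.6e-05). PHT1;4, a phosphate carrier (log2 1.37 ± 0.20, adjusted p = 0.000211), SPX1, a phosphate sensor (log2 0.80 ± 0.12, adjusted p = 0.000254), and SQD2, which makes sulfolipid (log2 0.50 ± 0.08, adjusted p = 0.000301), were higher. So was PHO2, which restrains phosphate uptake (log2 0.78 ± 0.12, adjusted p = 0.000254).

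Clock genes had 8 of 18 higher and 2 lower (median 0.35), and 12 higher and 2 lower without wild type replicate 2. Treatment and harvest were at the same hour of the day per the labels. PRR9, a morning repressor, had 65.9, 73.3 and 76.3 CPM in opt3-2 shoots, against 23.3, 38.1 and 25.9 CPM in wild type shoots (log2 1.3 ± 0.15, adjusted p = 4.49e-05), and wild type replicate 2 was the highest of its group. PRR7 (log2 0.61 ± 0.07, adjusted p = 3.47e-05), GI (log2 0.90 ± 0.09, adjusted p = 1.2e-05) and LNK1 (log2 0.47 ± 0.07, adjusted p = 0.000156) were higher. FKF1 had 0.823, 1.06 and 0.514 CPM in opt3-2 shoots, against 0.0413, 0.136 and 0.165 CPM in wild type shoots (log2 2.69 ± 0.42, adjusted p = 0.000355). CCA1 did not pass (log2 0.10 ± 0.14, adjusted p = 0.617, or 0.0403 without wild type replicate 2) and LHY was lower (log2 -0.38 ± 0.12, adjusted p = 0.0194, or 0.0665 without opt3-2 replicate 3). Of 11 flavonoid genes 0 were higher and 2 lower (median -0.17), these being FLS1 (log2 -1.37 ± 0.37, adjusted p = 0.0102) and CHI (log2 -0.63 ± 0.18, adjusted p = 0.0131, or 0.0579 to 0.0585 without opt3-2 replicate 1 or 2).

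Markers of cell types set a frame for these values. Mesophyll markers had 3 of 6 higher and 0 lower (median 0.32). The 3 were CA1, a carbonic anhydrase (log2 0.85 ± 0.25, adjusted p = 0.0168, or 0.0521 to 0.0596 without opt3-2 replicate 3 or wild type replicate 1 or 3), RBCS3B, a Rubisco subunit (log2 0.32 ± 0.11, adjusted p = 0.0321, or 0.0786 to 0.119 without opt3-2 replicate 2 or 3 or wild type replicate 1 or 3, or 0.082 with library sizes alone), and RCA, which activates Rubisco (log2 0.52 ± 0.19, adjusted p = 0.0437, or 0.114 to 0.142 without opt3-2 replicate 1 or 2 or wild type replicate 1 or 3, or 0.0517 by limma-voom, or 0.0746 with library sizes alone). None was higher without wild type replicate 1 or 3, 1 was without opt3-2 replicate 2 or 3, and 2 were without opt3-2 replicate 1. RBCS1A did not pass at 6295, 6303 and 6266 CPM in opt3-2 shoots, against 6259, 6349 and 5918 CPM in wild type shoots (log2 0.03 ± 0.17, adjusted p = 0.922), the level of a main leaf protein gene. Phloem markers had 4 of 10 higher and 0 lower (median 0.28, and 0.43 without wild type replicate 2). These were PP2-A1 (log2 0.53 ± 0.07, adjusted p = 8.61e-05), the proton pump AHA3 (log2 0.60 ± 0.08, adjusted p = 0.000118), the sucrose carrier SUC2 (log2 0.56 ± 0.11, adjusted p = 0.00192) and the factor APL (log2 0.39 ± 0.11, adjusted p = 0.0102, or 0.0516 without wild type replicate 3). Their summed level ran from 1361 to 1439 CPM in opt3-2 and from 971 to 1169 CPM in wild type. OPT3 and SULTR2;1 are expressed in vascular tissue, and the part of phloem cell number in the values above was not tested. Guard cell markers had 3 of 5 higher and 0 lower (median 0.40, and 0.61 without opt3-2 replicate 1), with SLAC1 at log2 1.14 ± 0.12, adjusted p = 3.03e-05. Xylem markers had 1 of 9 higher (3 without opt3-2 replicate 3), CESA7 (log2 0.74 ± 0.21, adjusted p = 0.0139, or 0.0562 to 0.0609 without opt3-2 replicate 1 or wild type replicate 3), and 2 lower, XCP1 (log2 -1.03 ± 0.14, adjusted p = 0.000185) and XCP2 (log2 -0.67 ± 0.09, adjusted p = 0.000159). Flower markers had 1 of 7 higher, FUL (log2 0.82 ± 0.15, adjusted p = 0.00108), and 2 lower, AP3 (log2 -1.53 ± 0.53, adjusted p = 0.0337, or 0.0534 to 0.163 without opt3-2 replicate 2 or 3 or wild type replicate 2, or 0.0506 by DESeq2, and log2 -0.89 without wild type replicate 2) and SEP3 (log2 -1.03 ± 0.39, adjusted p = 0.0483, or 0.0696 to 0.175 without opt3-2 replicate 2 or 3 or wild type replicate 2 or 3, or 0.0704 by DESeq2), at levels of a few CPM. Root markers had 0 of 9 higher and 1 lower, PYK10 (log2 -0.40 ± 0.08, adjusted p = 0.00218). Their summed level ran from 65.05 to 77.49 CPM in opt3-2 and from 89.54 to 101.8 CPM in wild type, and CASP1 to CASP4 lay at or near the floor.

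Across all genes, the largest rises among called genes with at least 5 CPM in a group and no overlap were led by AT1G52810, which the reference describes as a 2-oxoglutarate and iron dependent oxygenase. It had 8.42, 7.2 and 5.65 CPM in opt3-2 shoots, against 0.248, 0.409 and 0.264 CPM in wild type shoots (log2 4.50 ± 0.25, adjusted p = 4.24e-07). NAS3 and NEET followed, then AT3G02480, a late embryogenesis abundant protein (log2 3.89 ± 0.40, adjusted p = 2.11e-05, and log2 4.75 without wild type replicate 2), and LSU1. WRKY71 (AT1G29860, chr1:10454433-10455874 on the plus strand of TAIR10.1) had 10.7, 10.2 and 9.81 CPM in opt3-2 shoots, against 0.744, 0.852 and 0.825 CPM in wild type shoots (log2 3.65 ± 0.10, adjusted p = 2.19e-09), with very little spread within either group. AT2G17740, with cysteine- and histidine-rich C1 domains (log2 3.21 ± 0.20, adjusted p = 9.5e-07), AT3G49160, of the pyruvate kinase family (log2 3.02 ± 0.16, adjusted p = 3.28e-07), PDF1.4 and MSRB4 completed the 10. MSRB4, a methionine sulfoxide reductase, had 7.76, 5.64 and 6.45 CPM in opt3-2 shoots, against 0.744, 1.67 and 0.429 CPM in wild type shoots (log2 2.80 ± 0.35, adjusted p = 9.67e-05, and log2 3.53 without wild type replicate 2). AT3G49160 overlaps an annotated gene, AT3G49155.

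Outside that rule, and chosen after its values were seen, SLAH4 (AT1G62262, chr1:23000157-23002096 on the minus strand of TAIR10.1), a relative of the anion channel SLAC1, had 4.35, 3.85 and 2.71 CPM in opt3-2 shoots and 0 in all wild type shoots. Against a floor of 3 counts per wild type library it was at least 33.6-fold higher in opt3-2 shoots. In roots it was lower in opt3-2 (-1.84 ± 0.17).

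The 10 largest falls began with the defensins PDF1.2B, PDF1.2C, PDF1.3 and PDF1.2A. DXPS1, of the plastid isoprenoid route, had 0, 0.0558 and 0.14 CPM in opt3-2 shoots, against 19.5, 2.05 and 16.6 CPM in wild type shoots (log2 -7.59 ± 1.12, adjusted p = 0.000392, or 0.0977 by limma-voom, and log2 -6.91 without opt3-2 replicate 1, and log2 -8.87 without opt3-2 replicate 3), which rests on 4 counts in all opt3-2 libraries. AT5G19110, an aspartyl protease, had 0.0784, 0.0558 and 0.187 CPM in opt3-2 shoots, against 19.1, 5.42 and 18.6 CPM in wild type shoots (log2 -7.00 ± 0.91, adjusted p = 0.000196, and log2 -7.61 without opt3-2 replicate 3). CYP82G1, which makes volatile homoterpenes, had 0.0784, 0.279 and 0.187 CPM in opt3-2 shoots, against 16.1, 3.99 and 16.7 CPM in wild type shoots (log2 -6.13 ± 0.75, adjusted p = 0.000258). In these 3 genes wild type replicate 2 lay well below the other wild type libraries and above all opt3-2 libraries. AT2G43590, of the chitinase family, had 2.15, 1.62 and 2.76 CPM in opt3-2 shoots, against 212, 38.8 and 193 CPM in wild type shoots (log2 -6.07 ± 0.65, adjusted p = 6.39e-05) and showed the same order. AT1G76470, a Rossmann-fold protein (log2 -6.17 ± 0.74, adjusted p = 7.55e-05, and log2 -7.62 without opt3-2 replicate 1), and THI2.1 completed the list. Over all opt3-2 libraries together, AT1G76470 held 5 counts, AT5G19110 7 and CYP82G1 11, so the sizes of these falls are uncertain too. DXPS1 and THI2.1 overlap annotated genes, AT3G21490 and AT1G72250.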

How the data were processed

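The authors deposited gene counts, whole numbers per TAIR10 locus and column, for 36 columns of cadmium-treated samples. Per the submitters' processing notes, TAIR10, TopHat2 and edgeR were used, without versions. How reads were counted, on which strand and with what handling of multiply mapped reads: not given in the sources used here. Per the labels, RNA was poly(A) RNA and libraries were made with Illumina TruSeq kits. The 3 technical columns of each biological replicate were summed, giving 12 libraries, since they differed by little more than counting noise (variance over mean 1.03 to 1.06, against 13.5 between opt3-2 shoots and 19.7 between wild type shoots). Column names end in a run suffix whose meaning is not stated. The suffixes differ in part between the genotypes, and wild type shoot replicate 3 shares none with opt3-2 shoots. Genotype and suffix are thus partly confounded, which the spread within a replicate does not measure.

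Genes with enough counts by filterByExpr were kept (21887). One model over 12 libraries in 4 groups was fitted with edgeR 4.0.16 in R 4.3.3 (TMM scaling, robust quasi-likelihood F test, 8 residual degrees of freedom), and p-values were adjusted by Benjamini-Hochberg over all genes tested, with calls at 0.05. The root libraries share the estimate of the spread. CPM used TMM-scaled library sizes and no length scaling, so levels of different genes are not comparable. The test was checked on simulated counts with the same spread for every gene and no deviating library. That check does not cover the uneven spread of these data.

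Gene lists and the members named were chosen with earlier results of these data known. Genes named across all genes are the 10 largest rises and falls among called genes with at least 5 CPM in a group and no overlap between libraries. From each list the members with the smallest p are named, all of them in short lists and where a family is described by member. Symbols were matched by locus to the RefSeq annotation of TAIR10.1 (28009 of 28775 loci, the other 766 holding 0.154% of counts). Promoters run from 250 bases before to 50 after the RefSeq start. Motifs searched but not shown above are given here. The W box (TTGACC or TTGACT) was in 30.0% of salicylic acid and 45.8% of WRKY promoters, against 32.4% of all promoters. The G-box (CACGTG) was in 30.0% of iron storage, 13.6% of leaf iron transport and 19.0% of iron regulator promoters, against 7.68%. The iron-dependent regulatory sequence was in 0 of 10 iron storage promoters and 0 of 27443. The evening element was in 27.8% of clock promoters, against 2.82%. Alternatives were library sizes alone, RLE, DESeq2 1.42.0, limma-voom 3.58.1, no filter, shoots alone, a replicate block, and leaving out each shoot library. Further ones were the first technical column alone and selected run suffixes, which leave out wild type shoot replicate 3.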

Additional observations from a re-analysis of the deposited data

Results flagged for a closer look

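The effect of opt3-2 in shoots minus its effect in roots was tested for 42 genes, OPT3 and the leading member of each list, on the log2 scale with Benjamini-Hochberg adjustment over all genes (edgeR's quasi-likelihood test, 3 libraries in each of 4 groups). Leading members were chosen by their smallest shoot p, which is part of this difference, so their share is not comparable with that of all genes. The difference passed for 33 of the 42, given below. It did not pass for 9, namely GSTU8 (0.41), ZIP4 (-0.20), APR1 (0.21), WRKY8 (-0.29), LHCB4.3 (-0.13), PAP17 (-0.15), CA1 (0.57), SLAC1 (0.74) and PYK10 (0.15).

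Of the metal genes it was -1.16 for OPT3, which fell by more in shoots than in roots, 1.59 for YSL1, 2.2 for FER4, -1.02 for BTS, 1.66 for SUFB, 1.26 for CAT1, -1.90 for ARPN and -1.64 for PCR2. Mitochondrial and oxidative stress genes gave -1.71 for NDB2 and -0.73 for RBOHF. Sulfur and glucosinolate genes gave 2.38 for LSU1, 2.83 for MAM1 and 1.05 for CYP71A12.

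In the defence lists it was 0.74 for JAZ11, -6.39 for TAT3, -4.05 for PR4 and -7.14 for PR5. Protein folding and turnover genes gave -2.25 for CNX1, -4.23 for HSP18.2 and -0.44 for PBD1, and cell cycle genes -2.97 for PCNA1, -2.59 for CYCB1;3 and -2.64 for H3.1e. The remaining lists gave 0.55 for ABI1, -0.75 for GSA1, 0.94 for NYC1, 1.01 for NIR1, 1.17 for GI and -2.98 for FLS1. Among cell type markers it was 0.37 for PP2-A1, -1.0 for XCP2, -1.08 for KNAT1 and 2.11 for FUL. The KNAT1 difference did not pass without the filter on low counts (-1.07) or without any 1 of the 6 shoot libraries (-0.92 to -1.20).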

How the results depend on the processing

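Genes called higher numbered 3259 to 5474 and lower 3794 to 5941 over the 9 settings other than leaving out each library in turn. Both counts stayed within 1.5 times those of the main fit. Of the 9, the setting with selected run suffixes also left out wild type shoot replicate 3. DESeq2 gave 5474 higher and 4529 lower, RLE scaling 5423 and 4461, and limma-voom 4696 and 4652. Without any 1 shoot library the counts were 3540 to 4748 higher and 4091 to 5003 lower. OPT3 lay between -3.90 and -4.15 under all settings. Of 333 genes whose shoot values the text gives, 47 lost their call under at least 1 setting and 28 gained it under at least 1, of which 30 and 14 did so on leaving out a library. No called fold change of a named gene and no called shoot-minus-root difference changed sign under these settings. Of 1320 list counts 149 moved by over 1.5 times.

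Replicates of the genotypes share numbers in the labels, but nothing states that a number links the genotypes, so the numbers were not taken as pairs. Deviations of same-numbered shoot libraries from their group means had correlations of -0.112, 0.0373 and 0.111. Those of unlike-numbered libraries ran from -0.172 to 0.157. With 3 libraries a group these values cannot decide whether replicates were paired. With the replicate block 4157 genes were higher and 4537 lower. CPM values are per library and not per cell, and genes with under 3 counts in a library cannot be told from 0.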
